A study of Mus musculus with 4 samples.

Results

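Voltage-gated sodium, calcium and HCN channel subunits set how neurons fire, and their transcripts were compared here between olfactory bulbs of control mice and of mice lacking Sp8 and Sp9 in the interneuron lineage. The members were the genes whose symbols name a sodium channel alpha or beta subunit (Scn), a calcium channel alpha1, alpha2delta or beta subunit (Cacna1, Cacna2d, Cacnb), an HCN channel (Hcn) or the sodium leak channel Nalcn. The deposited table held 36 such genes among 20032. Scn2a1, an older symbol of Scn2a, is not matched by this naming rule and is given apart. The rule that picks the members reads gene symbols alone, but these channel families were chosen with earlier results of these data known.

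Sodium channel alpha subunits carry the upstroke of the action potential, and beta subunits anchor and tune them. Among calcium channels, T-type pores open near rest and shape burst firing, L-type pores open with strong depolarisation and link firing to gene expression, and P/Q-, N- and R-type pores trigger transmitter release. The alpha2delta and beta subunits bring calcium channel pores to the membrane. HCN channels open on hyperpolarisation and carry a depolarising pacemaker current, and NALCN carries a resting sodium leak. Granule and periglomerular cells, the GABAergic interneurons of the bulb, and the glutamatergic mitral and tufted cells that they inhibit all rely on such channels.

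The 4 libraries were made from total RNA of bulbs at postnatal day 11, on a mixed background of the C57BL/6J, 129S6 and CD1 strains. The 2 controls were littermates without Cre, and the labels used here do not say whether they carried floxed alleles. The 2 mutants, called DCKO, were Sp8 Flox/Flox and Sp9 Flox/Flox and carried Dlx5/6-CIE, a Cre transgene driven by a Dlx5/6 enhancer, which acts in GABAergic precursors. Nor do the labels state that replicates came from separate animals, so each p-value reflects only how far these samples differ, which may be technical. The deposited scaled fragment counts summed to 14632502 to 15400982 per library. Control levels of Sp8 were 32.0 and 26.7 FPKM against 1.68 and 2.03 in DCKO, and those of Sp9 were 24.0 and 30.7 against 0.0674 and 0.236 FPKM, so both targeted genes were low in the libraries labelled DCKO. FPKM are fragment numbers scaled by transcript length and by library size, a level that can be compared between genes of different length.

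Calcium channel genes made up most of the decreases. Of the 36 members, 28 averaged at least 1 FPKM across the libraries and were tested with limma on log2(FPKM + 1). At an adjusted p below 0.05 (Benjamini-Hochberg over all 13434 tested genes), 12 of the 28 fell (42.9%), where 14.3% of all tested genes fell. Another 3 rose (10.7%), where 13.0% of all tested genes rose. The median log2 change of the 28 was -0.33, beside -0.0157 for all tested genes. Calcium channel genes gave 9 of the 12 decreases and 1 increase among 15 tested. Of the 4 HCN genes 2 fell, and Nalcn did not pass. When each library was centred on its median instead, 9 members fell and 3 rose, and the counts over all genes moved from 1926 fallen and 1747 risen to 1580 and 2225.

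**Figure D1:**
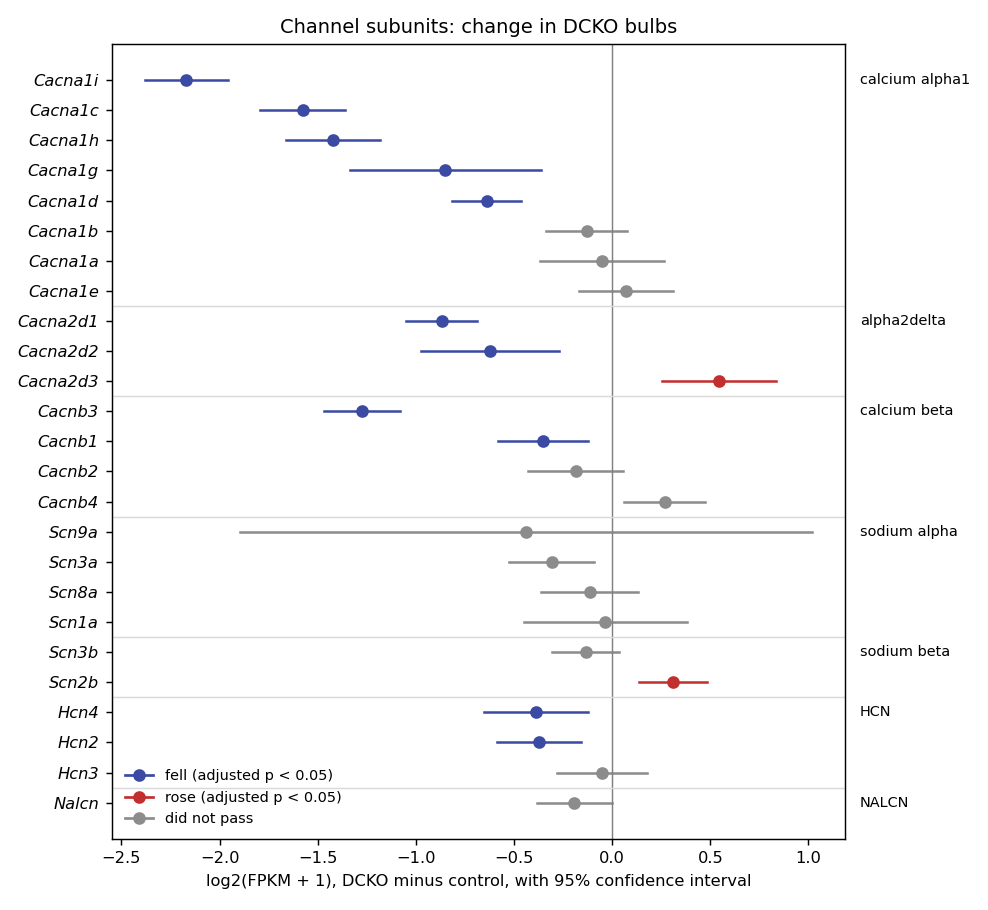
Each point is the log2(FPKM + 1) change, DCKO minus control, of a tested member named here with its 95% confidence interval, grouped by family and coloured by the limma call (n = 2 libraries per group). Cacna1i, Cacna1c, Cacna1h and Cacnb3 lie farthest to the left, down to -2.17 for Cacna1i, and the increases reach at most 0.54 for Cacna2d3.

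Both DCKO libraries lay below both controls for 18 of the 28 tested members, where 37.6% of all tested genes did, and above both controls for 4, where 33.9% did. A call with a fall of at least 1 on the log2 scale was seen in 4 calcium channel members (Cacna1i, Cacna1c, Cacna1h and Cacnb3), and in 3.05% of all tested genes. Fewer increases and fewer decreases were called when a control was left out, among the members and over all genes. Over all genes, leaving out a DCKO library also lowered both counts. The log2 changes of Cacna2d3 and Scn2b moved little. Cacna2d3 came to 0.52 without control replicate 1 and 0.57 without control replicate 2, beside 0.54 with all libraries. Scn2b came to 0.29 and 0.32 in the same order, beside 0.31. Without control replicate 1 limma called 0 increases (2 at an unadjusted p below 0.05), and without control replicate 2 it called 1. Whole-bulb RNA does not tell fewer cells of a type from less RNA per cell, and several lists of cell markers moved with genotype. All 8 listed markers of bulb interneurons fell, and their summed level was 776 to 802 FPKM in controls and 85.3 to 133 in DCKO. All 6 mitral and tufted cell markers rose, from 677 to 748 up to 1277 to 1442 FPKM in sum. All 5 astrocyte markers rose, from 446 to 459 up to 873 to 906 FPKM in sum. The 6 pan-neuronal markers summed to 1629 to 1663 and 1695 to 1796 FPKM, with 1 fallen (Rbfox3) and 1 risen (Stmn2). None of the 6 oligodendrocyte lineage markers was called. Among 5 microglia markers 3 rose, and among 5 endothelial and mural markers 2 rose, with no decrease called in either list. No marker in these lists was listed at 0 in all libraries. The part of these markers in the channel results was not tested.

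All 3 T-type pore genes fell. Cacna1i (chromosome 15, 80287238 to 80398279, + strand, GRCm38) stood at 19.3 and 20.3 FPKM in control replicates 1 and 2 and at 3.79 and 3.46 FPKM in DCKO replicates 1 and 2. This was the lowest DCKO level among the 8 tested calcium channel pore genes, from a control level close to that of Cacna1e and Cacna1a. Its mean was 5.46-fold lower, with a log2 change of -2.17 (SE 0.082, 95% confidence interval -2.38 to -1.96, limma adjusted p = 0.000745), the largest decrease among the tested members. Cacna1h (chromosome 17, 25374285 to 25433783, - strand) stood at 22.2 and 21.4 FPKM in controls and 8.08 and 6.93 FPKM in DCKO. The groups did not overlap, and the change was -1.42 on the log2 scale (SE 0.093, adjusted p = 0.00194). Cacna1g (chromosome 11, 94408391 to 94474198, - strand) was the most abundant calcium channel pore gene in controls, at 31.9 and 30.0 FPKM. In DCKO it stood at 13.6 and 20.4 FPKM, the widest gap between mutant libraries of any T-type gene, and its log2 change was -0.85 (SE 0.19, adjusted p = 0.0321). With no filter on low values, which raised the number of genes tested, the Cacna1g call was lost (adjusted p = 0.0721).

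Both abundant L-type pore genes fell. Cacna1c (chromosome 6, 118587240 to 119196418, - strand), the main L-type pore of forebrain and heart, stood at 17.2 and 18.2 FPKM in controls and at 4.999 and 5.54 FPKM in DCKO. The mean was 3.36-fold lower (log2 change -1.58, SE 0.084, 95% confidence interval -1.80 to -1.36, limma adjusted p = 0.00119). Cacna1d, the L-type pore that opens at less depolarised voltages, stood at 16.0 and 15.8 FPKM in controls and 9.75 and 9.96 FPKM in DCKO. Replicates lay close together in each group, and the change was -0.64 on the log2 scale (SE 0.068, adjusted p = 0.00606). The remaining L-type genes lay below the filter. Cacna1s, the pore of skeletal muscle, stood at 0.532 and 0.526 FPKM in controls and 1.05 and 0.713 FPKM in DCKO, and the 5 striated muscle markers summed to 3.44 to 4.83 FPKM in the 4 libraries. Cacna1f, best known from the retina, did not exceed 0.0686 FPKM.

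The pore genes of presynaptic release channels did not pass the test. Cacna1a, the P/Q-type pore, stood at 19.1 and 22.5 FPKM in controls and 18.3 and 21.8 FPKM in DCKO, so the groups overlapped (log2 change -0.051, 95% confidence interval -0.37 to 0.26, adjusted p = 0.775). Cacna1e, the R-type pore, had a change of 0.072 (95% confidence interval -0.17 to 0.31). Cacna1b, the N-type pore, stood at 11.2 and 10.4 FPKM in controls and 9.46 and 10.1 FPKM in DCKO, without overlap. Its change was -0.13 (95% confidence interval -0.34 to 0.077). These intervals exclude a fall as large as those of Cacna1c, Cacna1h or Cacna1i, although whether the changes differ between channel types was not tested. The sign of Cacna1a turned with median centring (0.0064) and quantile normalization (7.5e-05), and without control replicate 2 (0.060) or DCKO replicate 1 (0.070), and that of Cacna1e without DCKO replicate 1 (-0.011).

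**Figure D2:**
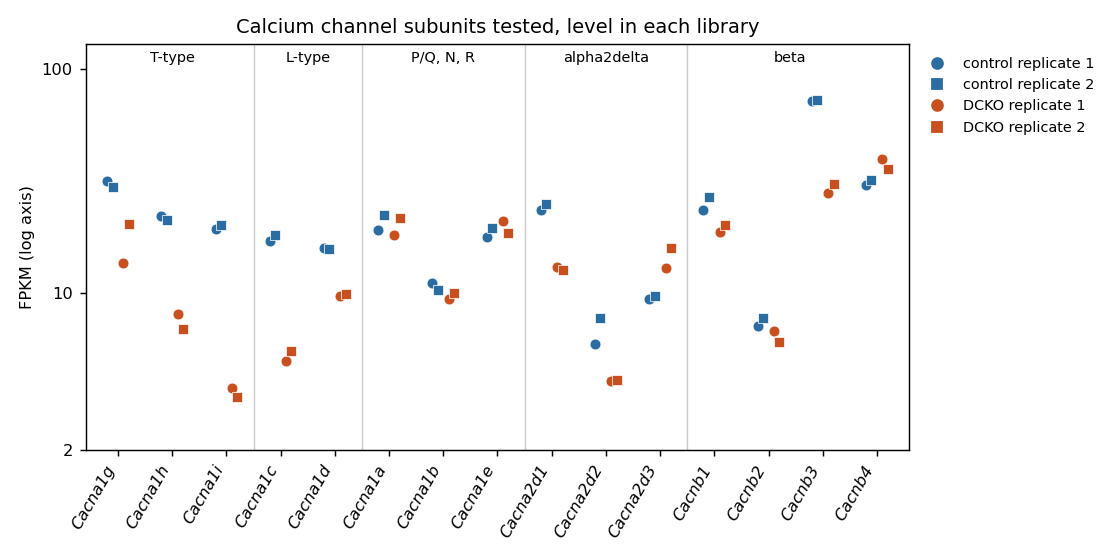
Level in each of the 4 libraries, in FPKM on a log axis, of the 15 tested calcium channel genes, with circles for replicate 1, squares for replicate 2, blue for control and orange for DCKO. Both DCKO libraries lie below both controls for the T-type and L-type pores, Cacna1b, Cacna2d1, Cacna2d2, Cacnb1, Cacnb2 and Cacnb3. They lie above both controls for Cacna2d3 and Cacnb4, whereas the symbols mix for Cacna1a and Cacna1e.

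Because FPKM is a level per length, the pore genes can be summed by channel type. The 10 Cacna1 genes together stood at 155 and 159 FPKM in controls and 90.1 and 97.5 FPKM in DCKO. The T-type genes summed to 72.5 ± 1.26 FPKM in controls and 28.1 ± 3.76 FPKM in DCKO (SD, n = 2 per group). The L-type genes summed to 34.2 ± 0.581 and 16.0 ± 0.291 FPKM. The P/Q-, N- and R-type genes summed to 50.3 ± 3.08 and 49.6 ± 1.21 FPKM, a difference within the spread between the controls. As shares of the summed level, the T-type genes held 47.3% and 45.1% in the control libraries and 28.3% and 31.6% in DCKO. The P/Q-, N- and R-type genes held 31.0% and 33.1% in controls and 54.1% and 51.7% in DCKO. As a pooled group they held the largest share in DCKO, where the T-type genes held it in controls. The T-type sum in DCKO, 25.5 and 30.8 FPKM, still lay above that of each other single type. In DCKO replicates 1 and 2, Cacna1a (P/Q-type) stood at 18.3 and 21.8 FPKM and Cacna1e (R-type) at 21.0 and 18.6 FPKM. Cacna1b (N-type) and the L-type sum were lower in both.

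**Figure D3:**
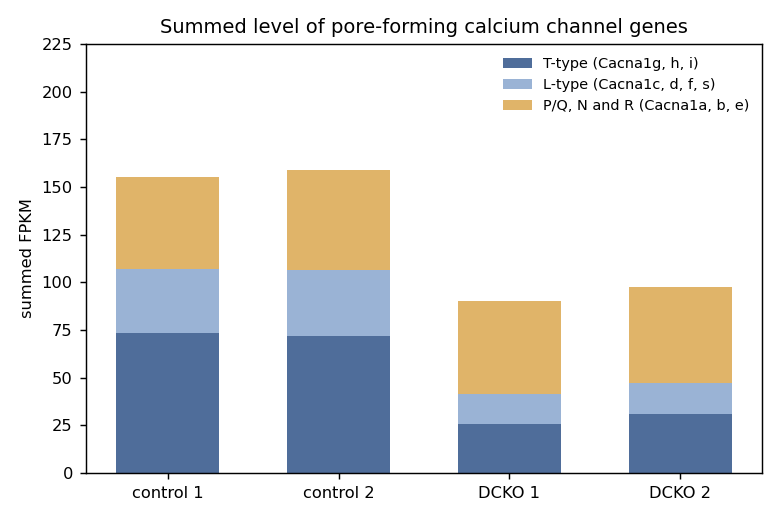
Stacked bars give the summed FPKM of the pore-forming calcium channel genes in each library, split into T-type, L-type and P/Q-, N- and R-type genes. The P/Q, N and R part stays between 48.1 and 52.5 FPKM in all 4 libraries, and the T-type part drops from 71.6 or more in controls to 30.8 or less in DCKO.

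Accessory subunits of calcium channels moved in both directions. Cacna2d1, an alpha2delta subunit and the main target of gabapentin (chromosome 5, 15934691 to 16374511, + strand), stood at 23.7 and 25.2 FPKM in controls and 13.1 and 12.8 FPKM in DCKO. The groups did not overlap (log2 change -0.87, SE 0.070, limma adjusted p = 0.00315). Cacna2d2, a paralog that also binds gabapentin, fell as well, from 5.94 and 7.79 to 4.04 and 4.09 FPKM (-0.62 on the log2 scale, adjusted p = 0.0311). In the opposite direction, Cacna2d3 (chromosome 14, 28904943 to 29721864, - strand) rose from 9.43 and 9.74 FPKM to 13.0 and 16.0 FPKM (log2 change 0.54, SE 0.11, adjusted p = 0.0274). Cacna2d1 thus stood above Cacna2d3 in both controls, with means of 24.4 and 9.59 FPKM. In DCKO the means were 12.9 and 14.5 FPKM. There Cacna2d1 and Cacna2d3 were nearly level in replicate 1 (13.08 and 13.02 FPKM), and Cacna2d3 was higher in replicate 2. Cacna2d4 lay below the filter in every library, at no more than 0.317 FPKM.

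Among the intracellular beta subunits, Cacnb3 (chromosome 15, 98630840 to 98644529, + strand) was the most abundant in controls. It stood at 72.5 and 72.8 FPKM there and at 28.0 and 30.9 FPKM in DCKO, 2.46-fold lower in the mean (log2 change -1.27, SE 0.074, limma adjusted p = 0.00150). Cacnb4, the subunit mutated in the lethargic mouse, stood at 30.4 and 32.2 FPKM in controls and 39.8 and 36.0 FPKM in DCKO. Both DCKO libraries were higher, but the change of 0.27 did not pass (adjusted p = 0.0641), except without DCKO replicate 2 (0.0482) and with quantile normalization (0.0465). In DCKO, Cacnb4 was therefore the beta subunit gene of highest level. Cacnb1 fell by 0.35 on the log2 scale (adjusted p = 0.0432), and Cacnb2, at -0.19, did not pass (adjusted p = 0.196).

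Several accessory subunit calls lay near the threshold and were lost in fits with 1 library left out, although no change turned its sign. Under the 12 alternatives the log2 change ran from -0.79 to -0.45 for Cacna2d2 and from 0.41 to 0.68 for Cacna2d3. That of Cacnb1 ran from -0.44 to -0.26. Leaving out control replicate 2 ended the Cacna2d2 call (adjusted p = 0.114), as did leaving out DCKO replicate 1 (0.0975) or DCKO replicate 2 (0.0856). The Cacna2d3 call was lost without control replicate 1 (0.0731) or control replicate 2 (0.0650), and that of Cacnb1 whichever library was left out, control replicates 1 and 2 (0.0580 and 0.217) or DCKO replicates 1 and 2 (0.119 and 0.0714), and in all under 9 of the 12 alternative settings.

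The stretches before the start of 3 of these genes are shown because they cover the member of largest decrease and an alpha2delta pair that changed in opposite directions. Sp family factors are known to bind GC boxes, and both strands of the 250 bases before each start were searched for the letters GGGCGG, counting copies that share bases. The sequences are from RefSeq promoters on GRCm38.p6, given 5′ to 3′ on the strand of the gene, with matches in capitals. The windows are chr15:80286988-80287237 (+ strand) for Cacna1i, chr5:15934441-15934690 (+ strand) for Cacna2d1 and chr14:29721865-29722114 (- strand) for Cacna2d3.
Cacna1i: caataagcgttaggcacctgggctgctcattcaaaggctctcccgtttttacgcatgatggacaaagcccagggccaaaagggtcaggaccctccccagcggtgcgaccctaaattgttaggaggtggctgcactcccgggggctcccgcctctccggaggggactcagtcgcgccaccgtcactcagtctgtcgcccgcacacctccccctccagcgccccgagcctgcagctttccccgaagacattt
Cacna2d1: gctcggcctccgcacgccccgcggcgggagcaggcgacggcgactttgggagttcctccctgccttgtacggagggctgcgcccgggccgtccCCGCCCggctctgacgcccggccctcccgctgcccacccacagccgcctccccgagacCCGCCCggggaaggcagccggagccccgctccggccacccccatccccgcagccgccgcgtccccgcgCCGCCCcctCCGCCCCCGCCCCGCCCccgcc
Cacna2d3: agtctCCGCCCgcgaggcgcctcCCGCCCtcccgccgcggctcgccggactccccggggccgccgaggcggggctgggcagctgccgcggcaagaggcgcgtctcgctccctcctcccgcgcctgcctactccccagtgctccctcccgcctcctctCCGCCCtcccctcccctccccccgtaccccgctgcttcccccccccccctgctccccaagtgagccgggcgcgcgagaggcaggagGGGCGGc
The window of Cacna1i held 0 matches and was 62.4% G and C, that of Cacna2d1 held 6 and was 82.4% G and C, and that of Cacna2d3 held 4 and was 80.0% G and C. The letters occurred in 32.7% of all 32851 promoter windows of this length. By symbol, 26 of the 36 members were in the table with 35 windows, 15 of which held the letters (42.9%). By call, 8 of 14 windows of fallen members held them (57.1%), 1 of 2 of risen members and 3 of 12 of members that did not pass (25.0%). Among members below the filter, 3 of 7 windows held them (42.9%). Member windows with the letters were mostly those richest in G and C. Several genes have more than 1 window, and these shares were not tested against each other. A match is a description of the letters and does not show binding.

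The sodium channel pore genes Scn8a, Scn3a and Scn1a did not pass the test. Scn8a, the mature channel of the axon initial segment and nodes, had the highest mean of the tested sodium channel pore members, at 12.2 and 14.1 FPKM in controls and 12.5 and 11.7 FPKM in DCKO. These values overlapped (log2 change -0.12, 95% confidence interval -0.36 to 0.13, adjusted p = 0.397).

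Scn3a, an alpha subunit prominent in the developing brain, stood at 12.9 FPKM in both controls and at 10.9 and 9.67 FPKM in DCKO. Its change of -0.31 missed the threshold (adjusted p = 0.0528), which it passed without DCKO replicate 1 (0.0456), on scaled counts (0.0383) and at a filter of 5 FPKM (0.0432). Scn1a, known from inhibitory interneurons elsewhere in the brain, stood at 7.26 and 8.32 FPKM in controls and 8.87 and 6.42 FPKM in DCKO, with a change of -0.036 (95% confidence interval -0.45 to 0.38). Its sign turned with median centring (0.021) and quantile normalization (0.0098) and without control replicate 2 (0.051) or DCKO replicate 2 (0.17). Outside the naming rule, Scn2a1 stood at 15.1 and 16.6 FPKM in controls and 25.0 and 18.2 FPKM in DCKO. Both DCKO libraries were higher, but the change of 0.41 did not pass (adjusted p = 0.117), and without DCKO replicate 2 it was 0.63 with an adjusted p of 0.0294. Scn3a, Scn1a and Scn9a, and Scn7a below the filter, lie in a cluster on chromosome 2 between 65457118 and 66784914, and none of these 4 was called.

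Scn9a and Scn4b differed more between the controls than between genotypes. Scn9a, the sodium channel that olfactory sensory neurons need to release transmitter from their axons in the bulb, stood at 3.42 FPKM in control replicate 1, 0.355 in control replicate 2, 0.910 in DCKO replicate 1 and 0.705 in DCKO replicate 2. Scn4b, a beta subunit linked to resurgent sodium current, stood at 2.51, 0.198, 0.434 and 0.453 FPKM in the same order. Control replicate 1 was thus the high library for both genes, and control replicate 2 the low one. The log2 change of Scn9a was -0.44 (SE 0.56, limma adjusted p = 0.582). With control replicate 1 left out it was 0.41 (adjusted p = 0.194), and with control replicate 2 left out it was -1.29 (adjusted p = 0.00747), so control replicate 1 set its direction. Scn9a, with a mean of 1.35 FPKM, lay just above the filter, and Scn4b (0.899) and Cacna1s (0.705) just below it.

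Markers of olfactory sensory neurons, whose axons end in the bulb, were also high in control replicate 1. Omp, the olfactory marker protein gene, stood at 98.4 FPKM there, 20.1 in control replicate 2, 31.5 in DCKO replicate 1 and 20.3 in DCKO replicate 2. Cnga2, a subunit of the olfactory transduction channel, stood at 10.2, 0.303, 0.206 and 0.212 FPKM in the same order. Its partner subunit Cnga4 stood at 4.02, 0.285, 0.0281 and 0.288 FPKM. The pattern of these genes across libraries was like that of Scn9a in its high library. Gng13 did not follow it, at 144, 68.0, 146 and 119 FPKM. None of the 4 listed markers was called or listed at 0 in all libraries, and they summed to 257 FPKM in control replicate 1, 88.6 in control replicate 2, 178 in DCKO replicate 1 and 139.5 in DCKO replicate 2. The part of these axons or cells in the Scn9a and Scn4b values was not tested.

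**Figure D4:**
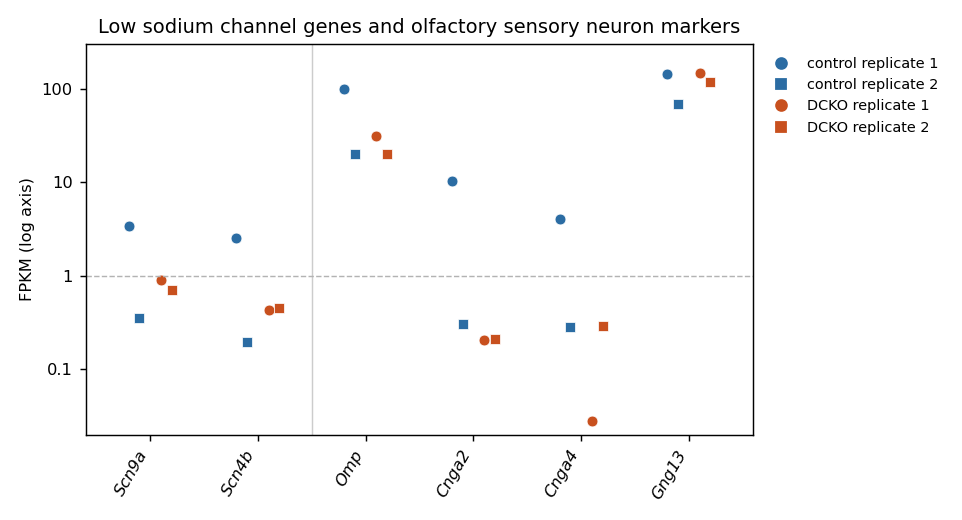
Level in each library, in FPKM on a log axis, of 2 sodium channel genes (left of the line) and 4 olfactory sensory neuron markers (right), with circles for replicate 1, squares for replicate 2, blue for control and orange for DCKO; the dashed line marks 1 FPKM. Control replicate 1 stands above the other 3 libraries for Scn9a, Scn4b, Omp, Cnga2 and Cnga4.

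Scn10a, Scn11a, Scn7a and Scn4a lay below the filter, with means of no more than 0.198 FPKM. Scn10a and Scn11a, known from peripheral pain-sensing neurons, lie on chromosome 9 between 119608456 and 119825456. Scn10a rested on scaled fragment counts of 20.2 and 27.0 in controls and 6.84 and 5.45 in DCKO, and Scn11a on 4.03 to 11.7 over the 4 libraries. Scn7a, a sodium-sensing channel of glia, stood at 0.167 to 0.212 FPKM in all libraries, on scaled fragment counts of 31.8 to 37.3. Scn4a, the channel of skeletal muscle, did not exceed 0.0471 FPKM and was listed at 0 in control replicate 1.

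Of the sodium channel beta subunit genes, Scn2b rose and Scn3b did not pass. Scn2b, a subunit disulfide-bonded to the pore, rose from 13.3 and 13.6 to 17.1 and 16.7 FPKM (log2 change 0.31, limma adjusted p = 0.0305). Scn3b stood at 39.8 and 40.5 FPKM in controls and 37.6 and 35.4 FPKM in DCKO, and its change of -0.14 did not pass (adjusted p = 0.182). Scn2b missed the threshold without control replicate 1 (adjusted p = 0.171), control replicate 2 (0.149) or DCKO replicate 1 (0.0675).

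Among HCN channel genes, Hcn2 and Hcn4 fell. Hcn2, the most abundant of the family here (chromosome 10, 79716634 to 79736108, + strand), stood at 44.7 and 49.7 FPKM in controls and 37.4 and 34.9 FPKM in DCKO. The groups did not overlap, and the log2 change was -0.38 (SE 0.083, limma adjusted p = 0.0320). Hcn4, a pacemaker channel with slow kinetics, fell by 0.39 (adjusted p = 0.0483), from 11.7 and 12.2 to 8.14 and 9.71 FPKM. With median centring neither decrease was called (limma adjusted p = 0.0616 for Hcn2 and 0.0598 for Hcn4). In all, Hcn2 lost its call under 6 of the 12 alternative settings. Hcn3 overlapped between groups (-0.051, 95% confidence interval -0.28 to 0.18), and its sign turned with median centring (0.0062), quantile normalization (0.0027) and without control replicate 2 (0.042). The Hcn2 call was lost without control replicate 2 (0.160), DCKO replicate 1 (0.0588) or DCKO replicate 2 (0.0808). The Hcn4 call was lost without control replicate 1 (0.125), control replicate 2 (0.185) or DCKO replicate 1 (0.0871), and in all under 9 of the 12 alternative settings.

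The sodium leak channel gene Nalcn stood at 15.2 and 15.4 FPKM in controls and 12.7 and 13.8 FPKM in DCKO (chromosome 14, 123276634 to 123627144, - strand). The DCKO libraries lay below the controls, but the change of -0.19 did not pass (95% confidence interval -0.38 to 0.00032, limma adjusted p = 0.116). Of the 3 listed genes of its complex, 2 fell. Fam155a, which encodes an auxiliary subunit of the complex, stood at 19.9 and 22.7 FPKM in controls and 10.3 and 9.47 FPKM in DCKO (log2 change -1.03, SE 0.094, adjusted p = 0.00415). Unc79, a large scaffold of the complex named here after its values were seen, fell from 10.2 and 10.5 to 5.21 and 5.88 FPKM (-0.80, adjusted p = 0.00662). Unc80, which bridges UNC79 and NALCN, stood at 15.2 and 17.4 FPKM in controls and 21.3 and 16.9 FPKM in DCKO and did not pass (0.21, adjusted p = 0.281).

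Genes whose products anchor, traffic or modulate these channels moved in both directions. Of 26 listed partner genes, 23 passed the filter, 8 fell (34.8%, where 14.3% of all tested genes fell) and 4 rose (17.4%, where 13.0% of all tested genes rose). The median log2 change was -0.21. Stac2, an adaptor that binds L-type channels and slows their inactivation, stood at 16.5 and 17.8 FPKM in controls and 2.21 and 3.06 FPKM in DCKO. This was the largest change in the list (log2 change -2.33, SE 0.14, limma adjusted p = 0.00152). Rimbp2, which ties calcium channels to the release machinery, fell from 9.58 and 11.7 to 5.34 and 4.86 FPKM (-0.93, adjusted p = 0.00882). Rims1, an active zone protein that recruits calcium channels, rose from 25.6 and 26.2 to 51.0 and 45.0 FPKM (0.86, adjusted p = 0.00478). Its paralog Rims2 did not pass (-0.21, adjusted p = 0.145).

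The remaining partner changes were smaller. Of the 8 sodium channel and axon initial segment genes, Fgf12 (-0.65) and Fgf14 (-0.44), intracellular fibroblast growth factor homologs that bind sodium channels, fell. The anchor Ank3, at 13.3 and 14.8 FPKM in controls and 13.1 and 13.5 FPKM in DCKO, did not pass (-0.075, 95% confidence interval -0.29 to 0.14), and neither did Sptbn4, Nfasc, Nrcam, Fgf11 or Fgf13. Nrcam passed without DCKO replicate 1 (adjusted p = 0.0487) and Fgf13 without DCKO replicate 2 (0.0299). Both HCN partners fell, Pex5l, which controls HCN trafficking in neurons, by 0.63 and Kctd3 by 0.40. The small increases of Gem (0.44), an inhibitor of calcium channel surface expression, Cabp1 (0.36) and Cacng6 (0.73) made up the rest of the 4, with adjusted p of 0.0321 to 0.0464. Cacng6 rested on scaled fragment counts of 11.6 to 32.2 per library. The calls of Gem, Cabp1 and Fgf14 were each lost whichever library was left out, with adjusted p up to 0.145, 0.191 and 0.196. Those of Pex5l (control replicate 1, 0.0994, or DCKO replicate 2, 0.0791), Kctd3 (control replicate 1, 0.0534, or control replicate 2, 0.116) and Cacng6 (control replicate 2, 0.112, DCKO replicate 1, 0.141, or DCKO replicate 2, 0.0750) were lost without the libraries named. Without control replicate 1, 5 partners fell and 2 rose. The count of partners that rose was 1 without control replicate 2, DCKO replicate 1 or DCKO replicate 2.

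**Figure D5:**
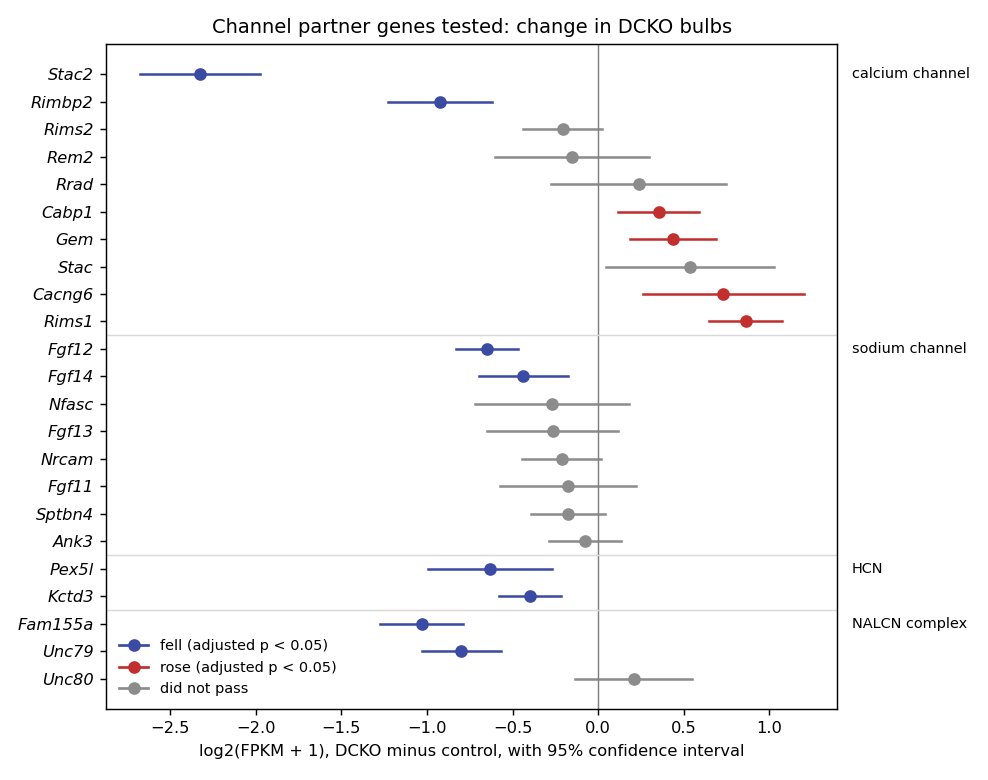
Each point is the log2(FPKM + 1) change, DCKO minus control, of a tested partner gene with its 95% confidence interval, grouped by the channel it works with and coloured by the limma call (n = 2 libraries per group). Stac2 lies farthest to the left at -2.33, Rims1 farthest to the right at 0.86, and the sodium channel group holds decreases but no called increase.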

How the data were processed

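Total RNA of whole olfactory bulbs was sequenced in 4 libraries, and groups were taken from the sample titles. The submitters' processing notes name TopHat, Cufflinks 2.1.1 and the genome build GRCm38.p4; for the annotation, the strand setting and the handling of shared reads the labels give nothing, so values of overlapping genes are uncertain. The FPKM values were made by the authors, per the file headers. The columns headed count are not whole numbers and were taken as a signal that the authors scaled by a factor per library, so no count model was used. Columns were mapped to samples through the sample descriptions.

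Genes averaging at least 1 FPKM across the libraries were fitted together on log2(FPKM + 1) with limma 3.58.1 in R 4.3.3, with an intensity trend, two-sided. The p-values were adjusted by the Benjamini-Hochberg method over all 13434 tested genes, with 0.05 as the threshold. Fold changes on this scale understate changes of low genes, and ratios are of mean FPKM. The fit was tested on simulated data. With 2 libraries per group, precision is limited by their number. Coordinates are from GENCODE M21 (GRCm38), which matched every member by symbol.

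The rule for the members reads symbols alone, but the choice of these channel families, and so of the members, and of the partner and marker lists was made with earlier results of these data known. Counts cover all members, and some members are not reported here by name. By the naming rule, values per library are given for called members with an absolute log2 change of at least 0.8, the most abundant member of each family and the members nearest the filter, and for partners called members of that size. Others are given by log2 change, in places with values. Alternatives covered the pseudocount, filter, scaling, trend, replicate block, scaled counts and each library left out.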

Additional observations from a re-analysis of the deposited data

How the results depend on the processing

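Under the 12 alternatives, 7 of the 15 called members kept their direction and call wherever they were tested, among them Cacna1c, Cacna1d, Cacna1h, Cacna1i, Cacna2d1 and Cacnb3. The other 8 lost their call under at least 1 alternative, and no called member changed direction. With no filter, where 19592 genes were fitted and tested, 7 members fell and 1 partner rose. On scaled counts 2 partners rose, and at a filter of 5 FPKM, with fewer partners tested, 2 rose. With 1 library left out, where the lone library of a group is assumed to vary like the other group, 9 to 10 members fell and 0 to 4 rose, 5 to 8 partners fell and 1 to 2 rose. Over all genes these fits called 1030 to 1875 lower and 806 to 1384 higher, against 1926 and 1747.

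Same-numbered libraries share a number and no stated animal or batch, and their deviations did not move together (correlation -0.0211 across genes, which are not independent). With a replicate block, 10 members fell and 2 rose, 7 partners fell and 3 rose; among members, Hcn2 (adjusted p = 0.0583), Hcn4 (0.0549) and Scn2b (0.0663) were no longer called.

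Sign turned in 5 members that had not passed. With median centring and quantile normalization, Cacna1a came to 0.0064 and 7.5e-05, Hcn3 to 0.0062 and 0.0027 and Scn1a to 0.021 and 0.0098. With 1 library left out, Cacna1a ranged from -0.17 to 0.070, Cacna1e from -0.011 to 0.16, Hcn3 from -0.14 to 0.042, Scn1a from -0.24 to 0.17 and Scn9a from -1.29 to 0.41. Among partners, Fgf11 ranged from -0.38 to 0.024 and Rem2 from -0.38 to 0.074. Apart from Scn9a, where control replicate 1 stood apart, the cause was not tested. FPKM keeps no exact depth, so genes averaging under 1 FPKM were described and were tested only in the fit with no filter.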
